A study of Mus musculus with 4 samples.

Results

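Integrins and immunoglobulin-type adhesion molecules are the surface proteins with which a thymocyte holds on to stroma, vessels and other thymocytes. The genes described here were every gene whose symbol begins with Itga or Itgb and a subunit number or letter, the Icam genes, and Vcam1, Pecam1, Alcam, Selplg, Spn and Cd24a. These symbols gave 41 of the 23285 genes in the deposited tables: 18 integrin alpha subunits, 9 beta subunits, 4 proteins named for binding a beta subunit that are not integrins themselves, 4 Icam genes and 6 other adhesion genes.

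An integrin is a pair of one alpha and one beta chain, and the pair decides the ligand: β2 pairs bind ICAM proteins, α4 pairs bind VCAM-1 and fibronectin, and αv pairs bind matrix proteins that carry an RGD sequence. The pair is held inactive until talin and kindlin bind the beta tail, a step driven by Rap1 signalling. In the thymus, α4β1 and other β1 pairs hold immature thymocytes on stroma, αLβ2 binds ICAM proteins on neighbouring cells, and PSGL-1, the product of Selplg, binds P-selectin when precursors enter from the blood.

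RNA was sequenced from thymocytes at the DN3 stage, the double-negative stage at which the T cell receptor beta locus is rearranged. Fetal liver cells of C57BL/6 donors, Gata3(g/g) or wild type (WT), had repopulated irradiated hosts, and the DN3 cells were sorted 16 weeks after transfer. Gata3(g/g) is labelled as a hypomorph of Gata3, the zinc-finger factor required throughout early T cell development, and the study asks what GATA factors do at this stage. There were 2 libraries per genotype, the replicates 1 from one sequencing run (run 1) and the replicates 2 from another (run 2), and nothing in the labels says that they came from separate animals, so p-values concern the spread between these samples only. Both groups share the strain, the transplantation and the irradiated host, and the number of animals pooled per library is not given in the sources used here.

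Gata3 itself stood at 120 and 96.1 FPKM in the Gata3(g/g)-labelled libraries, against 62.4 and 58.5 FPKM in the WT libraries. It was thus higher, not lower, in the libraries labelled hypomorphic, and which part of the gene the allele changes is not given in the sources used here, so every direction below is that of the labels. FPKM is a fragment count scaled to transcript length and sequencing depth, and levels of different genes are compared on this scale. The libraries held between 14331705 and 26901913 fragments in genes. All 13 DN3 marker genes passed the filter on low values, with summed levels of 4636 and 4969 FPKM in the Gata3(g/g)-labelled libraries, against 4333 and 5112 FPKM in the WT libraries. Sums of erythroid genes were 2.49 and 594 FPKM in replicates 1 and 2 labelled Gata3(g/g), against 1.39 and 464 FPKM in those of WT, and those of immediate-early genes were 578 and 97.3 FPKM, against 808 and 94.0 FPKM. Both sums differed more between runs than between genotypes. With the replicate block in edgeR, 6 of the 12 tested immediate-early genes also differed by genotype, Jun higher and Fosb, Junb, Jund, Egr1 and Nr4a1 lower in the Gata3(g/g)-labelled libraries, as did 1 of 7 erythroid genes (Hba-a2, higher). Of the 13 DN3 genes, 1 differed in that fit (Il2ra, higher) and 12 did not, with log2 fold changes from -0.40 to 0.98. The fit called 6.9% of all tested genes.

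Of the 41 members, 20 had a mean of at least 1 FPKM over the 4 libraries and were tested among 10224 genes with edgeR's quasi-likelihood test. These were 6 alpha subunits, 5 beta subunits, 2 binding proteins, 2 Icam genes and 5 of the other adhesion genes. With the replicate number, which marks the shared run, as a block, 4 of the 20 rose in the Gata3(g/g)-labelled libraries at an adjusted p under 0.05, and 0 fell (6 members had an unadjusted p under 0.05). The 4 were Itga9, Itgav, Alcam and Itgb2, with log2 fold changes between 0.996 and 2.24. Itga9 reached the mean of 1 FPKM only through the Gata3(g/g)-labelled libraries (1.93 FPKM, against 0.434 FPKM in WT). It thus entered these counts as a gene already higher there. The same fit called 6.9% of all tested genes, 3.9% as higher and 2.99% as lower, and whether the members were called more often than other genes was not tested. In the text, rose and fell refer to genes past this threshold in the fit with the replicate block, and positive log2 fold changes are those of genes higher there than in WT.

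Without the block, edgeR called 0 of the 20 members and 0% of all tested genes, with 4 members and 393 genes at an unadjusted p under 0.05 and a smallest adjusted p among members of 0.321. In that fit the log2 fold changes of Itga9, Itgav, Alcam and Itgb2 were 2.22, 1.18, 1.10 and 0.992. Their adjusted p by edgeR without the block were 0.321, 0.480, 0.741 and 0.844. DESeq2 called 4 members with the replicate block, and Itga9 and Itgav without it, and edgeR without block or filter called Itga9. Limma on log2(FPKM + 1) called 0 members with the block (6 had an unadjusted p under 0.05), with adjusted p between 0.0906 and 0.113 for the 4 genes that edgeR called. In the authors' deposited table the same 4 genes were the members with a q-value under 0.05, at 0.000264 for Alcam, Itga9 and Itgav and 0.00138 for Itgb2, where 4.1% of the genes tested there were under 0.05.

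**Figure D1:**
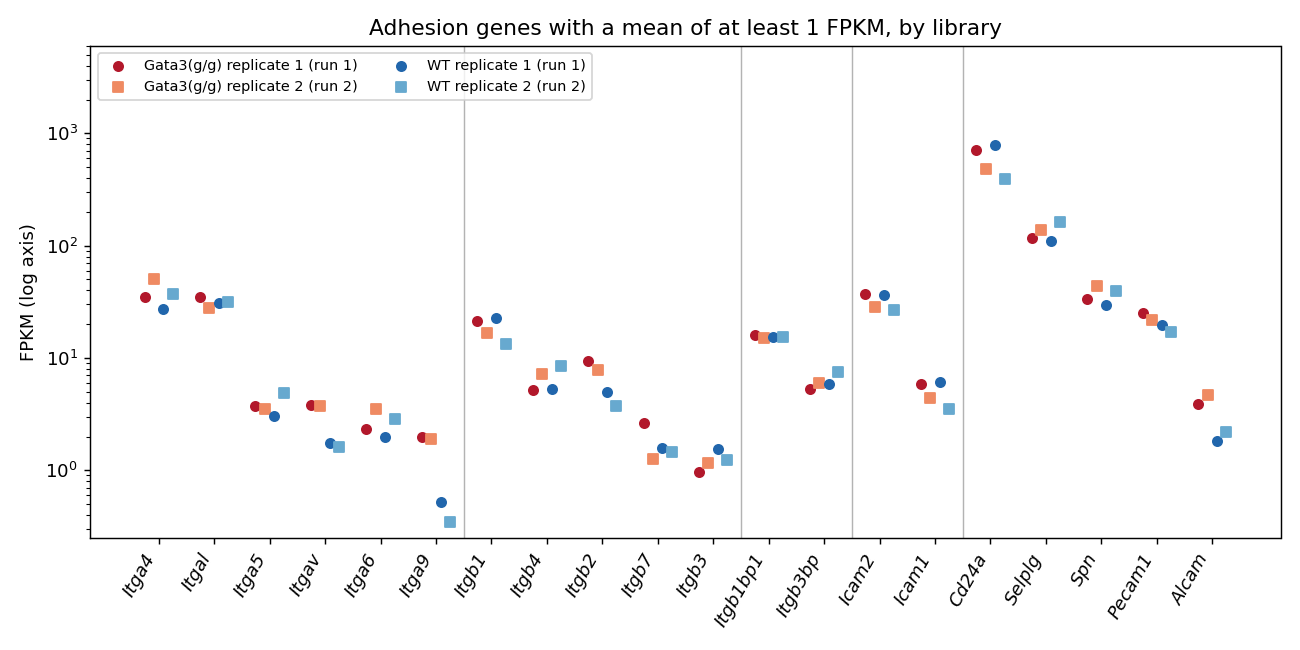
FPKM (log axis) of the 20 members with a mean of at least 1 FPKM in each library, ordered by role (alpha subunits, beta subunits, binding proteins, Icam genes, other adhesion genes) and then by level. Itga9, Itgav, Itgb2 and Alcam stand apart by genotype, while Cd24a at 714, 481, 784 and 395 FPKM stands apart by run.

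Itga9 encodes α9, which pairs with β1 and binds VCAM-1, tenascin-C and EMILIN-1. It lies at chr9:118606709-118901003 (mm10). Its level was 1.97 and 1.90 FPKM in the Gata3(g/g)-labelled libraries, against 0.519 and 0.350 FPKM in the WT libraries (562 and 368 fragments, against 109 and 48). Both libraries labelled Gata3(g/g) lay above both WT libraries, and the WT levels were the lowest of any tested member. The log2 fold change was 2.24 ± 0.240 (SE, edgeR with the replicate block, adjusted p = 1.31e-05), with within-run differences of 1.95 and 2.53 on the log2 CPM scale. The gene passed the filter on low values through the Gata3(g/g)-labelled libraries alone, since its mean was 1.93 ± 0.0498 FPKM there and 0.434 ± 0.120 FPKM in WT (SD, n = 2 each).

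Itgav encodes αv, which forms RGD-binding receptors with β1, β3, β5, β6 or β8, several of which activate latent TGF-β. The gene spans chr2:83724397-83806916 (mm10). It measured 3.82 and 3.77 FPKM in the Gata3(g/g)-labelled libraries, against 1.75 and 1.61 FPKM in the WT libraries. The genotypes did not overlap, and the replicates of each lay close together, at 3.80 ± 0.0325 FPKM with the Gata3(g/g) label and 1.68 ± 0.101 FPKM in WT (SD, n = 2 each). It rose by a log2 fold change of 1.18 ± 0.142 (SE, edgeR with the replicate block, adjusted p = 4.76e-05), 1.13 in run 1 and 1.22 in run 2 (log2 CPM). An exon of Gm13684 on the opposite strand shares 634 bases with those of Itgav in GENCODE M21, and whether the authors' counting used strand is not given in the sources used here.

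Alcam encodes CD166, an immunoglobulin-type adhesion molecule that binds itself and the T cell receptor-associated protein CD6. It lies at chr16:52248996-52452997 (mm10). Alcam stood at 3.88 and 4.73 FPKM in the Gata3(g/g)-labelled libraries, against 1.84 and 2.20 FPKM in the WT libraries. No WT library reached either of them, and run 2 was the higher run in both genotypes. The log2 fold change was 1.10 ± 0.152 (SE, edgeR with the replicate block, adjusted p = 0.000188). Within each run the difference was 1.09 on the log2 CPM scale.

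Itgb2 encodes β2 (CD18), the common chain of the leukocyte integrins, and lies at chr10:77530348-77565674 (mm10). It measured 9.48 and 7.78 FPKM in the Gata3(g/g)-labelled libraries, against 4.97 and 3.74 FPKM in the WT libraries. Both libraries labelled Gata3(g/g) were above both WT libraries, with means of 8.63 ± 1.20 FPKM under the Gata3(g/g) label and 4.36 ± 0.866 FPKM in WT (SD, n = 2 each). It rose by a log2 fold change of 0.996 ± 0.145 (SE, edgeR with the replicate block, adjusted p = 0.000301), 0.95 in run 1 and 1.04 in run 2 (log2 CPM). In bulk RNA, more cells of a kind that express such a gene and more RNA per cell cannot be told apart.

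**Figure D2:**
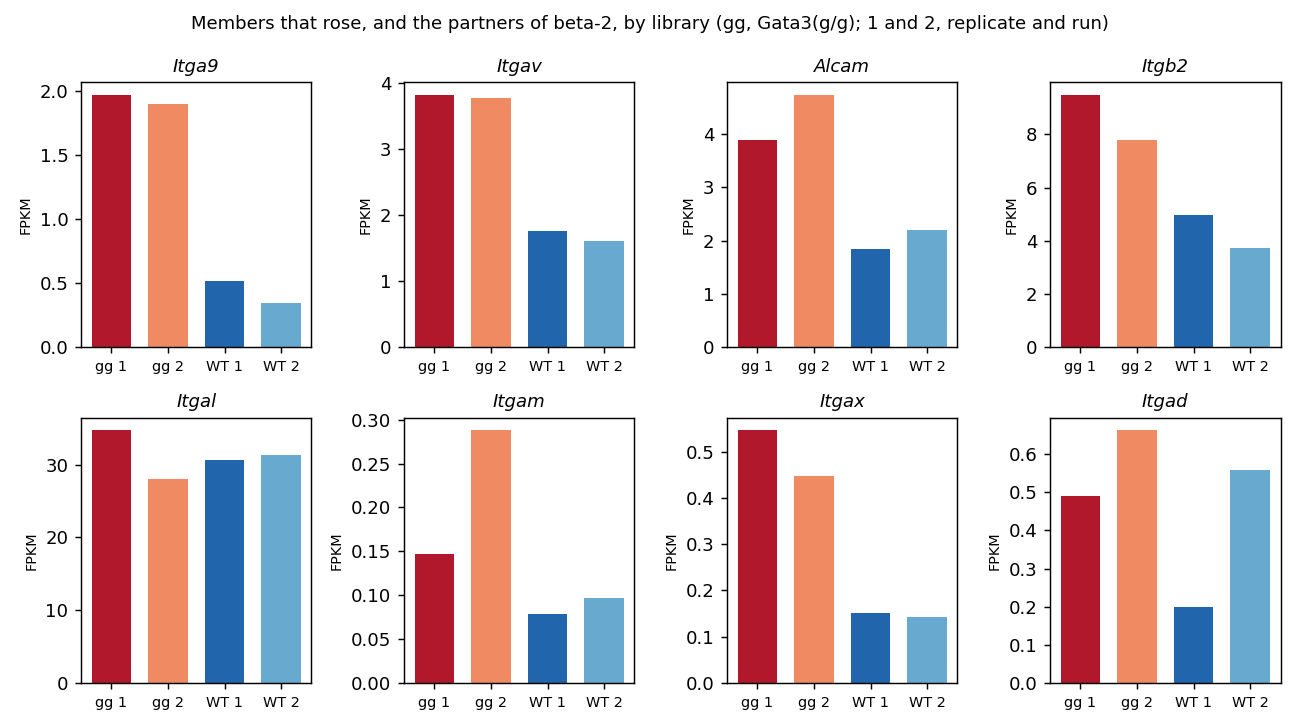
FPKM of the 4 members that rose (upper row) and of the alpha chains that pair with β2 (lower row) in each library, with bars from 0 and a separate scale per gene. Each gene of the upper row is higher in both libraries labelled Gata3(g/g), as is Itgax at 0.547 and 0.447 FPKM, while Itgal at 34.7 and 28.1 FPKM lies on both sides of the WT libraries.

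The start regions of the members were read from RefSeq (GRCm38.p6) as windows of 300 bases, 250 before and 50 from the start on, which 26 of the 41 members have, 24 of them within 500 bases of the edge of the gene in the authors' table. They were searched on both strands for AGATAA and TGATAA, the usual core of GATA sites, for GAGGAAGT, a core of PU.1-type sites, and for TGTGGT, a core of RUNX sites. The Itgav and Alcam windows are printed because both genes rose and the window lies at or near the gene's edge, and the Itgax window because it holds a GATA core. Capitals mark matches.
Itgav, chr2:83724147-83724446, plus strand: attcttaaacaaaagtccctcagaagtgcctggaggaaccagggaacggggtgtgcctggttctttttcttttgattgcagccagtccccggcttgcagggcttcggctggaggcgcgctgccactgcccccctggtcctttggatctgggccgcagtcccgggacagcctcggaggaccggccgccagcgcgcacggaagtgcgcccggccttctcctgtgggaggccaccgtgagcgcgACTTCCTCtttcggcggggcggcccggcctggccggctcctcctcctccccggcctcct
Alcam, chr16:52453032-52453331, minus strand: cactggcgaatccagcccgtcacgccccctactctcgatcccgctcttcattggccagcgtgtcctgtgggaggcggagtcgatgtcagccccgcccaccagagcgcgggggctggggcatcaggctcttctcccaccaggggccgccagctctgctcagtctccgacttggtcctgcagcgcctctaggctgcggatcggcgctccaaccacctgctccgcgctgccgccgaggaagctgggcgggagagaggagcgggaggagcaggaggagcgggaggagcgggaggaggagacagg
Itgax, chr7:128129300-128129599, plus strand: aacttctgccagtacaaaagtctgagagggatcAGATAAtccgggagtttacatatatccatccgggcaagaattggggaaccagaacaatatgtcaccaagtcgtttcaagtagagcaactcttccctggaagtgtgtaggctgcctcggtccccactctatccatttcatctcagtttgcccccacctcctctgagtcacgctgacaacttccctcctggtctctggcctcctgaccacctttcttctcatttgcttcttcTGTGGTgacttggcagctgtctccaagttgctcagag

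The Itgav window held 1 match to GAGGAAGT, read on the opposite strand as ACTTCCTC, and none to the other cores. The Alcam window held no match to any of them. The Itgax window held 1 AGATAA and 1 TGTGGT. Among the 24 members with a window near the gene's edge, 3 held AGATAA (Itgax, Itgb3bp and Icam4), 0 held TGATAA, 4 held GAGGAAGT (Itgav, Itga11, Itgb7 and Itgb2l) and 2 held TGTGGT (Itga4 and Itgax). Over all 32851 windows, 11.2% held AGATAA. The share was 9.05% for TGATAA, 3.20% for GAGGAAGT and 16.8% for TGTGGT. These matches describe the letters in the windows and were not linked to the expression differences. The start of the Itga9 window's transcript lies 104983 bases inside the gene and the window was not printed, and the Itgb2 promoter was not analysed here.

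Among the alpha subunits, Itga4 and Itgal led in every library. Itga4 encodes α4, the chain of VLA-4, and measured 35.2 and 50.3 FPKM in the Gata3(g/g)-labelled libraries, against 27.5 and 36.9 FPKM in the WT libraries. Within each run the library labelled Gata3(g/g) was higher, by 0.37 and 0.44 on the log2 CPM scale, yet the genotypes overlapped across runs. The log2 fold change of 0.40 ± 0.156 (SE) did not pass the test (edgeR with the replicate block, adjusted p = 0.139). Exons of Cerkl on the opposite strand share 1124 bases with Itga4.

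Itgal encodes αL (CD11a), the partner of β2 in LFA-1. Its level was 34.7 and 28.1 FPKM in the Gata3(g/g)-labelled libraries, against 30.7 and 31.3 FPKM in the WT libraries. The WT values lay between those of the other genotype, and the log2 fold change was 0.01 ± 0.132 (SE, edgeR with the replicate block, adjusted p = 0.966). Itga4 and Itgal together made 83.4% and 83.8% of the summed FPKM of the 18 alpha subunits in the Gata3(g/g)-labelled libraries, against 86.4% and 85.3% in WT. Itgav made 4.56% and 4.04% of that sum, against 2.61% and 2.01% in WT, and Itga9 made 2.35% and 2.03%, against 0.771% and 0.437% in WT. The genes that rose were thus minor alpha chains by transcript level in both genotypes.

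The remaining alpha subunits that passed the filter were Itga5 and Itga6. Itga5, the fibronectin receptor chain, measured 3.76 and 3.51 FPKM in the Gata3(g/g)-labelled libraries, against 3.03 and 4.91 FPKM in the WT libraries. Itga6, the laminin receptor chain that pairs with β1 or β4, measured 2.33 and 3.50 FPKM, against 1.98 and 2.84 FPKM. The genotypes overlapped for both genes, Itga5 differed in opposite directions in the runs (0.33 and -0.49, log2 CPM), and neither passed the test.

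Among the beta subunits, Itgb1 was the most abundant in every library. It encodes β1, the partner of most alpha chains, and stood at 21.4 and 16.8 FPKM in the Gata3(g/g)-labelled libraries, against 22.7 and 13.3 FPKM in the WT libraries. Both replicates 1 were above both replicates 2, so the order followed the run, and the log2 fold change was 0.13 ± 0.132 (SE, edgeR with the replicate block, adjusted p = 0.629). Itgb1 made 53.8% and 48.8% of the summed FPKM of the 9 beta subunits, against 62.7% and 46.8% in WT. Itgb2 made 23.8% and 22.5% of it in the Gata3(g/g)-labelled libraries, against 13.7% and 13.2% in WT.

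Itgb4 encodes β4, the partner of α6, and measured 5.20 and 7.17 FPKM in the Gata3(g/g)-labelled libraries, against 5.34 and 8.55 FPKM in the WT libraries. Itgb7 encodes β7, the chain shared by the gut-homing α4β7 and by αEβ7, and measured 2.66 and 1.27 FPKM, against 1.58 and 1.46 FPKM. Itgb3 encodes β3, a partner of αv, and measured 0.976 and 1.17 FPKM, against 1.55 and 1.24 FPKM. Both WT libraries were above both libraries labelled Gata3(g/g) for Itgb3, the genotypes overlapped for Itgb4 and Itgb7, and none of these genes passed the test. The log2 fold changes were -0.14 for Itgb4, 0.31 for Itgb7 and -0.38 for Itgb3 (edgeR with the replicate block), with adjusted p of 0.612, 0.576 and 0.352.

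Ratios between subunits of known pairs were read as a description, without a test. The ratio of Itgal to Itgb2 FPKM was 3.67 and 3.61 in the Gata3(g/g)-labelled libraries, against 6.19 and 8.37 in WT. The ratio of Itgav to Itgb3 was 3.91 and 3.23, against 1.14 and 1.30 in WT. The ratio of Itga4 to Itgb1 was 1.65 and 2.98, against 1.21 and 2.78 in WT, and here both replicates 2 were above both replicates 1. Ratios of transcript levels are not ratios of surface proteins, which were not measured.

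The other alpha chains that pair with β2 are those of myeloid and dendritic cells and lie together on chromosome 7. By the authors' positions, Itgam, Itgax and Itgad fall within 143.7 kb and 727.5 kb beyond Itgal. The position given there for Itgad is also that of Cox6a2, and GENCODE M21 ends Itgad further on, at 128223816. These 3 alpha chains had means under 1 FPKM. They were tested only in the fit with the replicate block and no filter on low values, which called 4.63% of 21355 genes. Itgax, the CD11c chain, measured 0.547 and 0.447 FPKM in the Gata3(g/g)-labelled libraries, against 0.151 and 0.142 FPKM in the WT libraries (111 and 61 fragments, against 23 and 15). Its genotypes did not overlap, and in that fit it rose with a log2 fold change of 1.76 ± 0.439 (SE, edgeR, adjusted p = 0.00267), with within-run differences of 1.79 and 1.56 (log2 CPM).

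Itgam, the CD11b chain, measured 0.147 and 0.288 FPKM in the Gata3(g/g)-labelled libraries, against 0.0784 and 0.0971 FPKM in WT. Itgad, the CD11d chain, measured 0.490 and 0.663 FPKM, against 0.200 and 0.558 FPKM in WT. The genotypes did not overlap for Itgam and overlapped for Itgad, and neither gene passed the test in the unfiltered fit (edgeR, adjusted p = 0.511 and 0.291). Itgam shares 3450 exon bases with Gm49368 on its own strand. Itgad shares 70 with Cox6a2 on the opposite strand, which stood at 15.3 and 19.2 FPKM in the Gata3(g/g)-labelled libraries, against 1.27 and 2.54 FPKM in WT, so the Itgad values are uncertain.

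Myeloid and dendritic marker genes were read beside the β2 group. Of 16 listed, 15 were in the tables and 6 passed the filter. Of these 6, 1 rose and 0 fell, where 6.9% of all tested genes were called. The gene that rose was Lyz2, at 18.7 and 13.6 FPKM in the Gata3(g/g)-labelled libraries, against 9.93 and 4.20 FPKM in WT, with a log2 fold change of 1.27 (edgeR with the replicate block, adjusted p = 0.00061). The list summed to 31.9 and 71.6 FPKM, against 23.0 and 58.0 FPKM, with S100a8 and S100a9 near 0 in run 1. The 9 that missed the filter had at most 0.837 FPKM in any library, among them Csf1r, Cd14, Mpo, Elane, Fcgr3 and Emr1 at or below 0.248 FPKM. The log2 fold changes of the 6 tested ran from -0.80 to 1.27.

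Of 10 listed genes of gamma-delta T cells, 6 were in the tables and 5 passed the filter. None of those 5 was a listed receptor constant-region gene (Tcrg-C1, Tcrg-C2, Tcrg-C4 or Trdc), so the receptor genes were not tested. Of the 5, 4 rose (Cd163l1, 5830411N06Rik, Maf and Blk) and 1 fell (Sox13), where 6.9% of all tested genes were called. The list summed to 142 and 89.0 FPKM in the Gata3(g/g)-labelled libraries, against 42.8 and 32.5 FPKM in WT. Of the double-positive markers, 3 passed the filter. Cd8a and Cd8b1 rose, and the other was not called, with a log2 fold change of -0.42 (edgeR with the block), where 6.9% of all tested genes were called. Cd4 stayed at or below 0.492 FPKM, and the list summed to 11.3 and 10.5 FPKM, against 7.003 and 3.88 FPKM in WT. Of the other marker lists, B cell and thymic stroma genes had 0 called, NK genes had none past the filter and a sum of at most 0.804 FPKM, and among mast cell genes 1 (Cpa3) fell, with a log2 fold change of -4.44 by edgeR with the block. The mast cell list summed to 8.28 and 8.82 FPKM in the Gata3(g/g)-labelled libraries, against 48.7 and 55.6 FPKM in WT, with Mcpt4 and Fcer1a listed at 0 in all 4 libraries. Only 2 of its genes passed the filter, and the one besides Cpa3 was not called, with a log2 fold change of 0.20. Those below the filter had at most 0.157 FPKM in any library, so the lower sums rest on Cpa3 alone. The part of such cells in the integrin differences was not tested.

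Among the 21 members with a mean under 1 FPKM, 15 stayed under 0.3 FPKM in every library. In the unfiltered fit with the replicate block, 7 of the 41 members passed, where 4.63% of 21355 genes did so. They were the 4 above with Itgax and Itga8 higher and Itgae lower. Itgae encodes αE (CD103), which with β7 binds E-cadherin, and measured 0.151 and 0.255 FPKM in the Gata3(g/g)-labelled libraries, against 0.724 and 0.370 FPKM in the WT libraries. The genotypes did not overlap, and Itgae fell with a log2 fold change of -1.43 ± 0.420 (SE, edgeR, adjusted p = 0.0185), although the within-run difference was -2.15 in run 1 and -0.52 in run 2 (log2 CPM). These values rest on 29 and 33 fragments, against 105 and 37 in WT.

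Itga8 encodes α8, a partner of β1 that binds nephronectin. It had 19 and 18 fragments in the Gata3(g/g)-labelled libraries, against 0 and 0 in WT. With 3 fragments per library as the floor for a count of 0, it was at least 4.98-fold higher in run 1 and at least 4.77-fold higher in run 2, and its adjusted p was 0.0483 (edgeR with the replicate block, no filter). Itgb6, the epithelial partner of αv, had 6 and 20 fragments, against 0 and 1, and did not pass (adjusted p = 0.433 by edgeR in the same fit). Together with Itga9, Itgav, Alcam and Itgax, these were the 6 of 41 members whose within-run log2 CPM differences, computed with a prior count of 2, both exceeded 1 in size with the same sign, where 3.86% of 21355 genes did so. Against the floor of 3 fragments, Itgb6 in run 1 was at least 1.57-fold higher, so a difference of that size was not shown for it there.

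The other partners of αv were near the limit of detection: Itgb5 had at most 0.119 FPKM in any library, and Itgb8 had 2 and 2 fragments, against 0 and 0 in WT. The β1 partners Itga1, Itga2, Itga3, Itga7, Itga10 and Itga11, mostly collagen and laminin receptor chains, were also below the filter. Itga1 had 8 and 1 fragments in the Gata3(g/g)-labelled libraries, against 0 and 5 in WT, Itga2 had 12 and 4, against 2 and 23, and Itga11 had 1 and 4, against 10 and 4. Itga3 measured 0.0487 and 0.163 FPKM, against 0.0647 and 0.0857 FPKM, and Itga7 had 2 and 4 fragments, against 3 and 4. Itga10 was the highest of these at 0.394 and 0.353 FPKM, against 0.384 and 0.210 FPKM, and shares 1739 exon bases with Gm42957 on its own strand. The genotypes overlapped in FPKM for these β1 partners other than Itga11, and none of them passed in the unfiltered fit with the replicate block.

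Itga2b, the platelet chain that pairs with β3, measured 0.0871 and 0.121 FPKM in the Gata3(g/g)-labelled libraries, against 0.155 and 0.268 FPKM in WT. Its WT libraries were both the higher ones, and it did not pass in the unfiltered fit with the replicate block (edgeR, adjusted p = 0.919). Itgb2l, a homologue of β2, had 1 and 3 fragments, against 0 and 0. Megakaryocyte and platelet marker genes summed to 0.549 and 1.62 FPKM, against 0.406 and 1.69 FPKM in WT, and none of the 8 reached a mean of 1 FPKM.

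Of the Icam genes, Icam2, a ligand of LFA-1 on leukocytes and endothelium, was the most abundant. It stood at 37.5 and 28.4 FPKM in the Gata3(g/g)-labelled libraries, against 36.6 and 26.7 FPKM in the WT libraries. Icam1, the inducible ligand of LFA-1 and Mac-1, stood at 5.92 and 4.39 FPKM, against 6.16 and 3.48 FPKM. For both genes, both replicates 1 were above both replicates 2 and the genotypes overlapped. The log2 fold changes were 0.06 ± 0.135 for Icam2 and 0.13 ± 0.1696 for Icam1 (SE, edgeR with the replicate block), with adjusted p of 0.842 and 0.714. Icam4 and Icam5, which lie within 23.08 kb of chromosome 9 with Icam1, did not pass the filter. Icam4, an erythroid member, measured 0.330 and 0.542 FPKM, against 0.442 and 0.843 FPKM, and Icam5, a neuronal member, had 6 and 11 fragments, against 5 and 4. Neither of the abundant LFA-1 ligands thus passed the test, beside a β2 chain that rose.

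Vcam1, the ligand of α4β1 on thymic stroma, had 25 and 5 fragments in the Gata3(g/g)-labelled libraries, against 33 and 14 in the WT libraries. In FPKM both WT libraries were above both libraries labelled Gata3(g/g), and Vcam1 did not pass in the unfiltered fit with the replicate block (edgeR, adjusted p = 0.753). Pecam1 encodes CD31, a self-binding adhesion molecule of leukocytes and endothelium, and measured 25.0 and 21.7 FPKM, against 19.7 and 16.9 FPKM in WT. Both libraries labelled Gata3(g/g) were above both WT libraries for Pecam1, with within-run differences of 0.36 and 0.35 (log2 CPM), and its adjusted p of 0.0992 was the lowest of any member that missed the threshold (log2 fold change 0.36 ± 0.124, SE, edgeR with the replicate block). Of the 10 endothelial markers, 1 passed the filter and 0 rose or fell, and they summed to 6.89 and 4.32 FPKM, against 4.94 and 3.33 FPKM in WT.

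The 2 sialomucins and Cd24a were among the most abundant members. Cd24a, which encodes the GPI-anchored heat-stable antigen of immature thymocytes, stood at 714 and 481 FPKM in the Gata3(g/g)-labelled libraries, against 784 and 395 FPKM in the WT libraries. Selplg, the P-selectin ligand, stood at 118 and 139 FPKM, against 109 and 161 FPKM, and Spn, which encodes the large sialomucin CD43, at 33.3 and 44.1 FPKM, against 29.6 and 39.2 FPKM. In all 3 genes the run set the order of the libraries, with Cd24a higher in run 1 and Selplg and Spn higher in run 2, and the genotypes overlapped. The log2 fold changes were 0.08 ± 0.178 for Cd24a, -0.05 ± 0.158 for Selplg and 0.19 ± 0.122 for Spn (SE, edgeR with the replicate block), with adjusted p of 0.857, 0.897 and 0.423.

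Of the proteins named for binding a beta chain, Itgb1bp1 (ICAP-1) holds β1 integrins inactive. It measured 16.0 and 15.0 FPKM in the Gata3(g/g)-labelled libraries, against 15.4 and 15.3 FPKM in the WT libraries, and its exons overlap those of Asap2 and Cpsf3 on the opposite strand. Itgb3bp, a centromere protein, measured 5.34 and 6.00 FPKM, against 5.84 and 7.52 FPKM. The genotypes overlapped for both, and their log2 fold changes were 0.02 ± 0.136 and -0.22 ± 0.150 (SE), with adjusted p of 0.958 and 0.431 by edgeR with the block. Itgb1bp2, the muscle chaperone melusin, measured 0.520 and 1.14 FPKM, against 0.694 and 1.20 FPKM, with a mean under 1 FPKM, and Itgb1bp3 had at most 7 fragments in any library.

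Across the 20 tested members, the 16 that were not called had log2 fold changes between -0.38 (Itgb3) and 0.40 (Itga4). With the block, 15 of the 20 had a log2 fold change above 0, where 51.3% of all tested genes did, and the median was 0.13, against 0.01 over all tested genes. The genotypes did not overlap in FPKM for 6 members, of which Alcam, Itga9, Itgav, Itgb2 and Pecam1 were higher and Itgb3 lower with the Gata3(g/g) label, where 29.0% of all tested genes did not overlap. That share of members was close to the background. Itga9, which passed the filter only through the Gata3(g/g)-labelled libraries, is included in these counts.

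**Figure D3:**
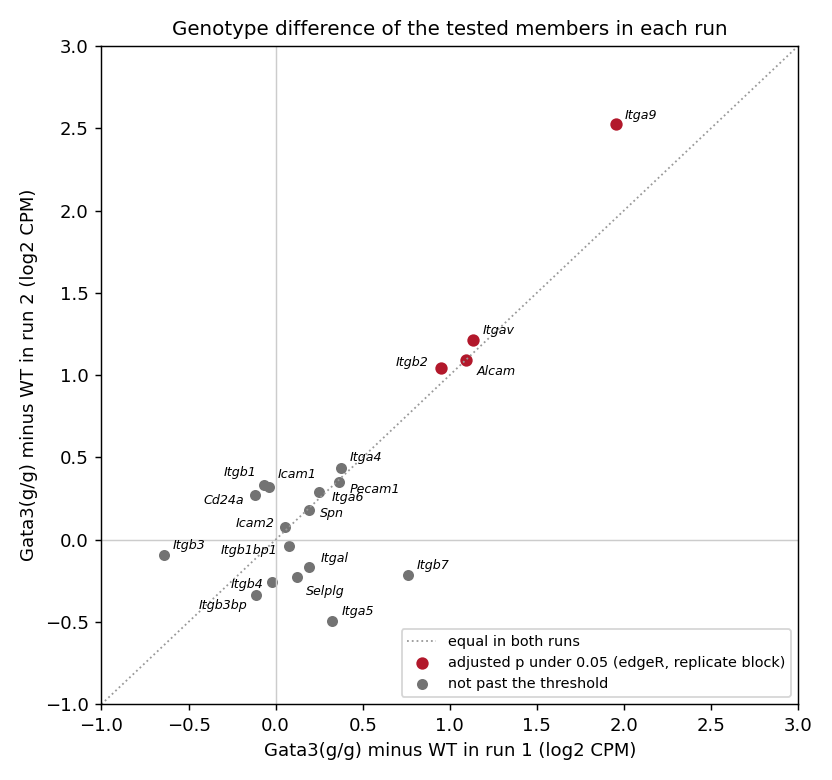
Difference between the library labelled Gata3(g/g) and the WT library in run 1 (horizontal) and in run 2 (vertical), in log2 CPM, for the 20 tested members, with the 4 past the threshold in edgeR with the replicate block in red. Those 4 lie between 0.95 and 2.53. Itgav, Alcam and Itgb2 lie near the line of equal differences, and Itga9 lies above it, at 1.95 in run 1 and 2.53 in run 2. The others lie between -0.64 and 0.76.

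The runs were compared within each genotype, as a description without a test, since each genotype had 1 library per run. The run difference was larger than the genotype difference in 14 of the 20 members, a share close to the 65.6% of all tested genes that showed this. It had the same sign in both genotypes in 16 of the 20 members (79.2% of all tested genes). Itgb4 was higher in run 2 by 0.48 in the Gata3(g/g)-labelled libraries and by 0.72 in the WT libraries, both in log2 CPM. Cd24a was lower in run 2, with differences of -0.57 under the Gata3(g/g) label and -0.96 in WT. The genotype difference had the same sign in both runs in 12 of the 20 members and opposite signs in 8, where 64.4% of all tested genes had the same sign. For Itga9, Itgav, Alcam and Itgb2 the genotype difference was the larger one.

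**Figure D4:**
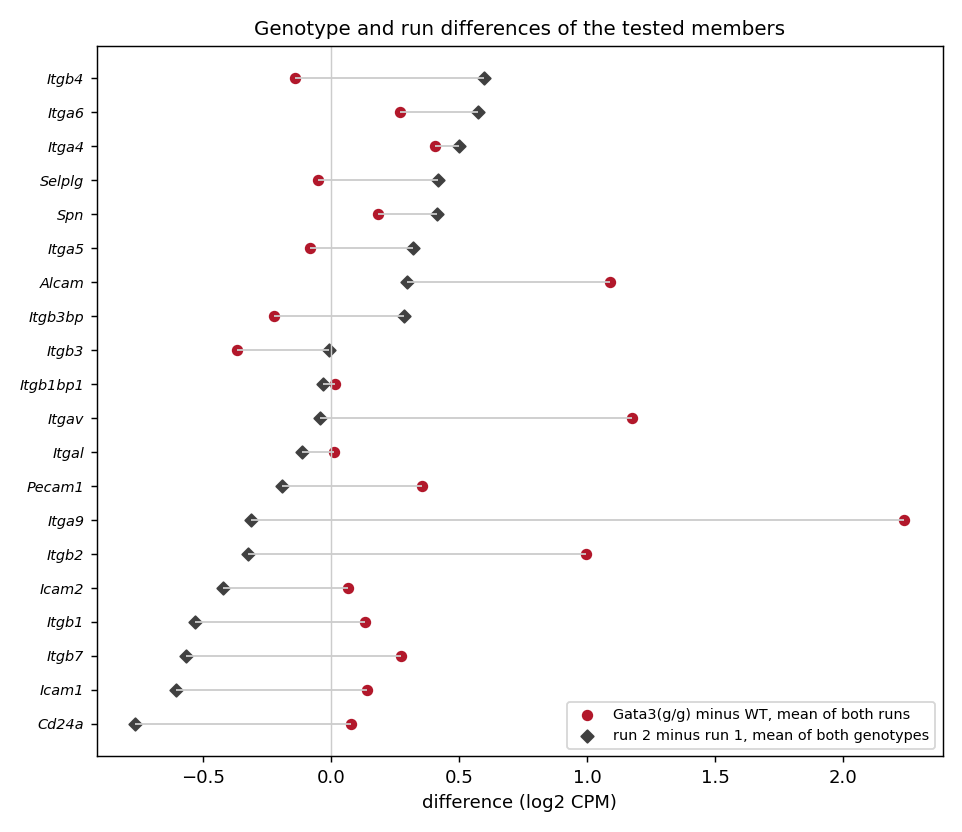
For each of the 20 tested members, the mean genotype difference over both runs (circles) and the mean run difference over both genotypes (diamonds), in log2 CPM, ordered by run difference. The run difference is the larger in 14 members, and the genotype difference is the larger in Itga9, Itgav, Alcam, Itgb2, Pecam1 and Itgb3.

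Genes that switch integrins on or link them to actin were read from a list of 55, of which 46 passed the filter. With the replicate block 3 rose, 1 fell and 42 did not pass, with a median log2 fold change of 0.15, against a background of 6.9% called. Cd9, a tetraspanin that associates with integrins, stood at 7.80 and 4.98 FPKM in the Gata3(g/g)-labelled libraries, against 3.91 and 2.40 FPKM in WT, and Cd82, another tetraspanin, at 39.1 and 31.5 FPKM, against 23.9 and 19.8 FPKM. Rap1b, a small GTPase that drives integrin activation, stood at 59.1 and 52.2 FPKM, against 47.3 and 30.9 FPKM. Fyb, the adaptor ADAP that couples the T cell receptor to integrins, stood at 74.5 and 81.2 FPKM, against 93.8 and 134 FPKM.

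None of these 4 overlapped between genotypes. The log2 fold changes were 1.03 for Cd9, 0.69 for Cd82, 0.54 for Rap1b and -0.52 for Fyb (edgeR with the replicate block), with adjusted p of 0.0156, 0.00295, 0.0188 and 0.044. Cd9 was not called by DESeq2 with the block (adjusted p = 0.0753), and Fyb was not called by edgeR with the block under total-fragment scaling (0.0712) or at a mean of at least 5 FPKM (0.0715). Fits with a library left out had no block, and the runs were then unequal between genotypes. Without WT replicate 2 the log2 fold changes were 0.25 for Rap1b and -0.25 for Fyb. Without WT replicate 1 they were 0.82 and -0.81, and without Gata3(g/g) replicate 1 that of Cd9 was 0.66. Talin itself, Tln1, stood at 19.7 and 27.7 FPKM, against 17.4 and 28.04 FPKM, and the kindlin of blood cells, Fermt3, at 40.9 and 36.0 FPKM, against 43.5 and 46.0 FPKM, and neither passed the test.

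Of 31 extracellular ligands of integrins, 2 passed the filter and 0 were called. Emilin1, a ligand of α9β1, stood at 4.96 and 4.91 FPKM in the Gata3(g/g)-labelled libraries, against 5.23 and 5.35 FPKM in WT, and Cdh1, which encodes the αEβ7 ligand E-cadherin, at 3.28 and 3.33 FPKM, against 3.38 and 3.78 FPKM. The adjusted p were 0.762 and 0.748 (edgeR with the replicate block). The remaining 29, including fibronectin, vitronectin and the laminins, had at most 0.911 FPKM in any library.

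Of 15 selectins and enzymes that build selectin ligands, 9 passed the filter, 0 rose and 1 fell, against a background of 6.9% called. The gene that fell was St3gal1, a sialyltransferase that caps O-glycans on proteins such as CD43. It stood at 5.43 and 7.43 FPKM in the Gata3(g/g)-labelled libraries, against 13.1 and 16.8 FPKM in the WT libraries. The genotypes did not overlap, and the log2 fold change was -1.22 ± 0.127 (SE, edgeR with the replicate block, adjusted p = 9.26e-06).

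Of 30 further adhesion receptors, 28 were in the tables and 14 passed the filter, of which 4 rose and 0 fell, with a median log2 fold change of 0.36. Over all tested genes, 3.9% were called as higher and 2.99% as lower, with a median of 0.01, and the list was not tested against them. Cd44, the hyaluronan receptor that falls before the DN3 stage, stood at 2.42 and 3.12 FPKM in the Gata3(g/g)-labelled libraries, against 1.16 and 1.08 FPKM in WT. Nrp1, the semaphorin and VEGF co-receptor, stood at 16.0 and 20.8 FPKM, against 9.18 and 9.95 FPKM. Cd6, the receptor of ALCAM, stood at 11.4 and 9.87 FPKM, against 8.79 and 6.31 FPKM.

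Emb, which encodes embigin, stood at 25.2 and 16.2 FPKM in the Gata3(g/g)-labelled libraries, against 20.0 and 8.59 FPKM in WT, so its genotypes overlapped across runs, while those of Cd44, Nrp1 and Cd6 did not. The log2 fold changes were 1.23 for Cd44, 0.94 for Nrp1, 0.62 for Emb and 0.52 for Cd6 (edgeR with the replicate block), with adjusted p of 0.000709, 0.000138, 0.0184 and 0.0346. Cd6 was not called by DESeq2 with the block (adjusted p = 0.159), and its log2 fold change was 0.30 without WT replicate 2. That of Emb was 0.0647 without WT replicate 2, 0.19 without Gata3(g/g) replicate 1 and 1.24 without WT replicate 1. These fits with a library left out had no block, so run differences entered their genotype comparison. None of the genes of these 4 lists was called by edgeR without the block, and limma with the block called none of the 9 named here as having risen or fallen.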

How the data were processed

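RNA from 4 libraries of sorted DN3 thymocytes was compared, 2 labelled Gata3(g/g) and 2 WT. RNeasy columns with DNase gave the RNA, and the NuGEN Encore Complete kit the libraries, per the labels' protocols. TopHat2 2.0.8b, Bowtie2 2.1.0, Cuffdiff 2.1.1 and mm10 are named in the submitters' processing notes. Annotation, read length and strand setting were not found in these sources. Per the file headers, the authors deposited an estimated count of fragments and an FPKM value for each gene and library. The authors' deposited comparison table also gives mean FPKM per genotype, log2 fold changes, p-values and q-values. Gene positions are from that table, written from 1.

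Of 23285 genes, 3 whose depth was too high for Cuffdiff were dropped, while 5 values with a failed status stayed in, none of them a member's. Between 97.7% and 98.9% of estimated counts were whole to within 0.01, and rounding was applied to all. Totals were 26901913 and 18035342 fragments in replicates 1 and 2 labelled Gata3(g/g), and 21159909 and 14331705 in those of WT. A floor of 3 fragments corresponds to between 0.112 and 0.209 CPM, for counting error only.

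The 10224 genes whose mean reached 1 FPKM entered the two-sided quasi-likelihood F test of edgeR 4.0.16 under R 4.3.3, with TMM scaling and p-values adjusted by Benjamini-Hochberg over all of them at 0.05. The planned model held the genotype alone. The sequence identifiers in the labels put both replicates 1 in one run and both replicates 2 in another, so the replicate number pairs the samples. Unless another fit is named, the per-gene estimates and the words rose and fell come from the fit with the replicate block, not from the planned model. Across genes, the run differences of the genotypes had a Pearson correlation of 0.754 (genes are not independent replicates). The model with the block keeps 1 residual degree of freedom and leans on the spread pooled over genes. The SE is the log2 fold change before shrinkage, in size, over the square root of F. Within-run differences are log2 CPM with a prior count of 2. DESeq2 1.42.0 and limma 3.58.1 (pseudocounts 1 and 0.1) were alternatives, and the code was tested on simulated data.

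Named were the members called with or without the block, the 10 of highest mean FPKM, their partner subunits, those with both within-run differences over 1, and up to 6 called genes per pathway list; others were named after their values were seen, such as Itgae. The members and lists were chosen with earlier results of these data known. Exon overlaps come from GENCODE M21 and promoter windows from RefSeq GRCm38.p6.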

Additional observations from a re-analysis of the deposited data

How the results depend on the processing

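The number of members called depended on pairing. EdgeR called 0 of 20 without the block under TMM, RLE or total-fragment scaling, and 4 with the replicate block under each of these scalings. Without a filter on low values it called 1 unpaired and 7 with the replicate block, and at a mean of at least 5 FPKM, which removes Itga9, Itgav and Alcam, 0 unpaired and 1 (Itgb2) with the block. DESeq2 called 2 unpaired and 4 with the block, while limma called 0 unpaired with either pseudocount and 0 with the block. Over all genes, edgeR called 0 unpaired and 705 with the replicate block, DESeq2 88 and 417, and limma 5 and 16; unfiltered edgeR called 58 and 988.

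Leaving out any 1 library, possible only without the block and with the runs then unequal between genotypes, called 0 members in each case. The 4 members that rose kept their direction in all 66 alternatives. Their log2 fold changes were 1.03 to 2.56 for Itga9, 0.84 to 1.23 for Itgav, 0.81 to 1.25 for Alcam and 0.82 to 1.18 for Itgb2. For each of the 4, both libraries labelled Gata3(g/g) lay above both WT libraries, so refits of these libraries could hardly reverse the direction. With a library left out, 12 members near 0 changed direction, over ranges of -0.38 to 0.57 (Cd24a), -0.24 to 0.54 (Icam1), -0.16 to 0.28 (Icam2), -0.46 to 0.28 (Itga5), -0.0537 to 0.575 (Itga6), -0.13 to 0.16 (Itgal), -0.23 to 0.50 (Itgb1), -0.0269 to 0.0611 (Itgb1bp1), -0.49 to 0.24 (Itgb4), -0.26 to 0.81 (Itgb7), -0.35 to 0.25 (Selplg) and -0.0335 to 0.41 (Spn); the cause was not tested. Itga8 and Itgb6 rest on at most 20 fragments per library.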
